A study of Mus musculus with 6 samples.

Results

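The genes described here are 7 that let a cell detect foreign or misplaced nucleic acid in its cytosol and pass the signal on: the sensors Ddx58, Ifih1, Dhx58 and Zbp1, the adaptor Mavs, and the kinases Tbk1 and Ikbke. They were taken by name, with earlier results of these data known, and each has exactly 1 probe set with a single gene symbol. All 7 are among the 18458 genes tested, out of 22180 genes that have such a probe set. RNA was measured in flow-sorted mouse cells on Mouse Gene 2.0 ST arrays, with 3 arrays of cells from spleen and 3 of cells from tumor. The sort took CD11b+ CD11c- cells with high Ly6C, called inflammatory monocytes in the labels, at 10 days after the transfer of Th9 cells (interleukin-9-producing helper T cells) into every mouse. The labels' strain entry reads Th9, and the sources used here do not give the mouse strain, its age or the kind of tumor. No group without Th9 cells was analysed here, so the comparison asks only how sorted cells of the tumor differ from sorted cells of the spleen.

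RIG-I (gene Ddx58) and MDA5 (gene Ifih1) are helicases that bind double-stranded RNA in the cytosol, and LGP2 (gene Dhx58) is a related helicase that lacks the signalling domains and tunes the other two. Once bound to RNA, RIG-I and MDA5 engage MAVS on the mitochondrial surface, which activates the kinases TBK1 and IKK-epsilon (gene Ikbke), and these phosphorylate the transcription factors that switch on type I interferon. ZBP1 binds left-handed nucleic acid helices and can start inflammatory cell death. In monocytes and macrophages the sensors are themselves known to be induced by interferon.

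On the tumor arrays the 4 sensors rose by 7.56-fold to 13.7-fold, the adaptor Mavs fell to 0.517 of its spleen value, and of the kinases Tbk1 rose by 2.09-fold while Ikbke was not called. Values are intensities as deposited, levels are log2(intensity + 1), and a change is tumor minus spleen on that log2 scale, given ± SE, with its fold on the same scale. A gene counts as called if its Benjamini-Hochberg adjusted p, in a limma fit over all genes tested, is under 0.05. By this rule 6 of the 7 genes were called, where 10.6% of all genes tested were. The calls of the kinases depended on the processing. Under 17 alternatives Tbk1 was called in 13 and Ikbke in 7, and Tbk1 in 2 of the 6 with an array left out. The 7 genes and the pathway lists below were chosen with earlier results of these data known. The shares of all genes are therefore given as background and are not a test. Called higher were 5 of 7, against 5.73% of all genes tested, and called lower was 1 of 7, against 4.85%. In 6 of 7 genes all tumor values lay above all spleen values, which held for 9.81% of genes tested, and in 1 they lay below, which held for 15.5%. In such bulk samples, fewer cells that express a gene and less RNA of it per cell cannot be told apart. The labels do not tie the 3 arrays of a group to separate mice, so the spread behind each p-value may be only technical.

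**Figure D1:**
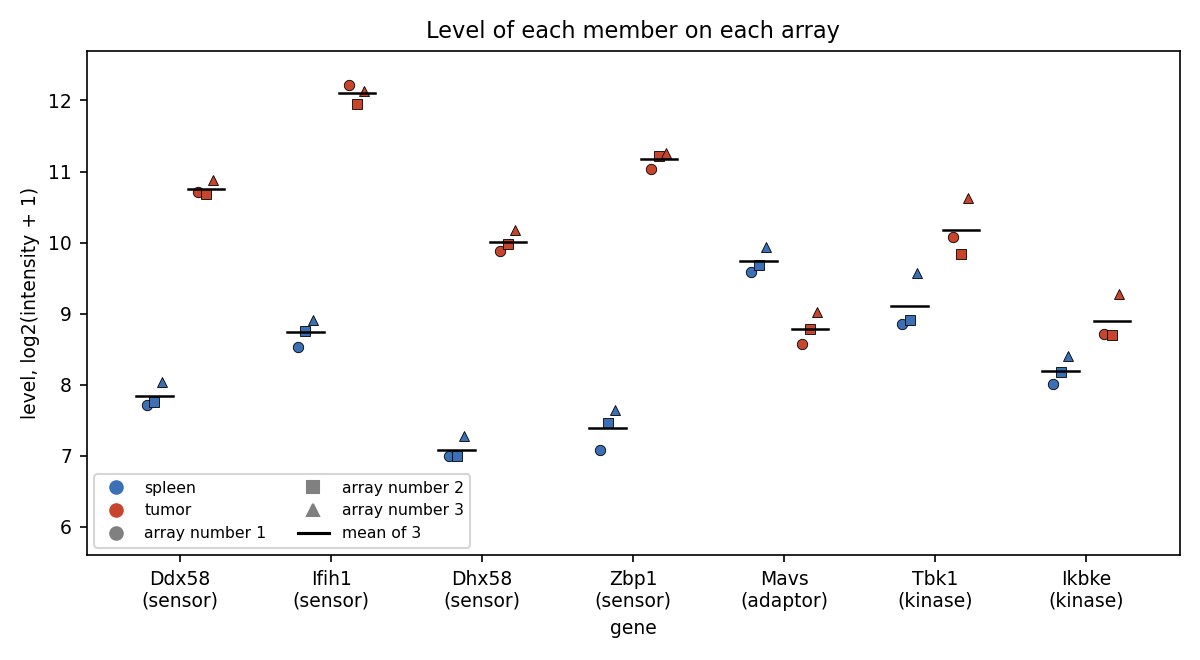
Level of each of the 7 genes, as log2(intensity + 1), on each of the 3 spleen and 3 tumor arrays; the symbol shape gives the array's number and the bar is the mean of 3. The tumor arrays lie above the spleen arrays for the sensors and kinases and below them for Mavs; heights are not comparable between genes, since each has its own probes.

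Zbp1 had the largest change of the 7. It had intensities of 135, 175 and 199 on spleen arrays 1 to 3 and of 2097, 2377 and 2457 on tumor arrays 1 to 3. The groups lay far apart, since the lowest tumor value exceeded the highest spleen value several times over. The mean level went from 7.40 ± 0.28 in spleen to 11.17 ± 0.12 in tumor (SD, n = 3), a rise of 3.77 ± 0.18 or 13.7-fold (limma adjusted p = 6.31e-06). By the size of its rise Zbp1 stood at rank 49 of 18458 genes. Ifih1, the sensor of long double-stranded RNA, was the next. Its intensities were 370.3, 431 and 482 on the spleen arrays and 4763, 3969 and 4512 on the tumor arrays. The level rose by 3.37 ± 0.16, from 8.74 ± 0.19 to 12.10 ± 0.14 (SD, n = 3), which is 10.3-fold (limma adjusted p = 6.31e-06), at rank 73.

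Ddx58 and Dhx58 changed by nearly the same amount. Ddx58, the sensor of short RNA with a free triphosphate end, had intensities of 209.9, 215 and 263 in spleen and of 1669.8, 1642 and 1887 in tumor. Its level rose by 2.92 ± 0.15, from 7.84 ± 0.18 to 10.76 ± 0.11 (SD, n = 3), or 7.56-fold (limma adjusted p = 1.07e-05). Dhx58 had intensities of 126, 127 and 154 in spleen and of 939, 1011 and 1158 in tumor. In log2 terms this was a rise of 2.92 ± 0.16, from 7.09 ± 0.16 to 10.01 ± 0.15 (SD, n = 3), or 7.59-fold (limma adjusted p = 1.16e-05). Across the 6 arrays the centred log2 profiles of Ddx58 and Dhx58 differed by a root mean square of only 0.0444, the smallest value among all 21 pairs of the 7 genes. The 95% intervals of the 4 changes were 3.36 to 4.19 for Zbp1, 3.0 to 3.74 for Ifih1, 2.56 to 3.29 for Dhx58 and 2.56 to 3.27 for Ddx58. Whether the sensors differ from each other in their change was not tested. All 4 sensors kept their call under each of the 17 alternatives with a test, with adjusted p of at most 0.00425.

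Promoter sequences from RefSeq (build GRCm38.p6, 250 bases before to 50 after the start of the gene) matched 5 of the 7 genes: Ddx58, Ifih1, Mavs, Tbk1 and Ikbke. They were searched on both strands for the core of the interferon-stimulated response element, GAAA and GAAA with any 2 bases between them, which interferon-activated factors are known to bind. The core was found in Ddx58 and Ifih1, the sensors with a promoter in the table, and its letters are not in the windows of Mavs, Tbk1 or Ikbke. It occurs in 3.44% of all 32851 promoter windows. In the 250 bases before the start alone the core is in 0 of the 5 genes, where 2.98% of all windows have it. The stretches around the matches are shown with the match in capitals. By the search they have only the fixed letters of the core in common. The match lies on the strand opposite to the gene at bases 3 to 12 after the start in Ddx58 (chr4:40239804-40239833, minus strand). In Ifih1 it lies on the gene's strand at bases 33 to 42 (chr2:62646206-62646233, minus strand).
Ddx58 core: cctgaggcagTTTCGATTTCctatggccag
Ifih1 core: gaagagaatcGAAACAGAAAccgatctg
A match is a description of the letters and was not tested as a site.

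The 250 bases before the start are shown for Ddx58, which rose, and for Mavs, which fell. In Ddx58 (chr4:40239826-40240075, minus strand) the capitals mark a closer pair of GAAA, with 1 base between, which begins 60 bases before the start. This motif was spelled out after the Ddx58 sequence had been read, is found in 3.17% of all promoter windows and overlaps no match of the core. In Mavs (chr2:131233813-131234062, plus strand) no motif searched was found, so it has no capitals.
Ddx58 upstream: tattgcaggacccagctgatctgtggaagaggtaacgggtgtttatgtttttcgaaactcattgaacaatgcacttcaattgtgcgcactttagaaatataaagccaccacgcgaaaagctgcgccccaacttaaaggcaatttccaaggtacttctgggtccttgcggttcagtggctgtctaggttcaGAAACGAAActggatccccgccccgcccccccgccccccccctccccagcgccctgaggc
Mavs upstream: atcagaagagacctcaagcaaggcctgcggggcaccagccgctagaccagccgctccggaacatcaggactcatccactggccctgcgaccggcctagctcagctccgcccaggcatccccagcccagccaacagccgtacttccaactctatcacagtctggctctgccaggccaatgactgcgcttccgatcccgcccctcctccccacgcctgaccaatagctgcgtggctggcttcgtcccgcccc
The core of the gamma-activated site, TTC and GAA with any 3 bases between (8.3% of all windows), and a kB motif, GGGA and TTCC with any 2 bases between (1.47% of all windows), were found in none of the 5 windows.

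Mavs, the only adaptor among the 7, went the other way. It had intensities of 769, 825 and 984 on spleen arrays 1 to 3 and of 379, 439.5 and 517 on tumor arrays 1 to 3. No tumor value reached the lowest spleen value. The level fell by 0.95 ± 0.17 on the log2 scale, from 9.74 ± 0.18 to 8.79 ± 0.22 (SD, n = 3; limma adjusted p = 0.01, 95% interval of the change -1.35 to -0.55). Pairing the arrays by number gave changes of -1.02, -0.91 and -0.93 for numbers 1, 2 and 3. Without tumor 1 the change was -0.84 and the call was lost (limma adjusted p = 0.0564).

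The kinases changed less than the sensors. Tbk1, the kinase that phosphorylates IRF3, had intensities of 464, 483 and 758 in spleen and of 1079, 915 and 1582 in tumor. The groups did not overlap, but array 3 stood above arrays 1 and 2 in each group. Its level rose by 1.07 ± 0.26, from 9.12 ± 0.39 to 10.18 ± 0.40 (SD, n = 3), or 2.09-fold (limma adjusted p = 0.035, 95% interval 0.47 to 1.66). The upper end of that interval lies under the lower end of every sensor's interval. Array 3 exceeded the mean of arrays 1 and 2 by 0.68 in spleen and by 0.67 in tumor, while the median gene tested did so by 0.29 and 0.28. Within array numbers the changes of Tbk1 were 1.21, 0.92 and 1.06. The call was lost without spleen 1 (adjusted p = 0.122), spleen 2 (0.129), tumor 1 (0.107) or tumor 3 (limma adjusted p = 0.0689).

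Ikbke, the second kinase, whose expression is known to be inducible in myeloid cells, had intensities of 256, 290.3 and 339 in spleen and of 419, 416 and 617 in tumor. Every tumor value was above every spleen value. The difference was 0.70 ± 0.20, or 1.62-fold, from 8.20 ± 0.20 to 8.90 ± 0.32 (SD, n = 3), with a limma adjusted p = 0.0671 and a 95% interval of 0.24 to 1.16, so it was not called. With the array number as a block Ikbke was called (limma adjusted p = 0.00204), where 11.7% of genes tested were called higher. Within array numbers the differences were 0.71, 0.52 and 0.86. Whether the changes of Tbk1 and Ikbke differ was not tested.

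**Figure D2:**
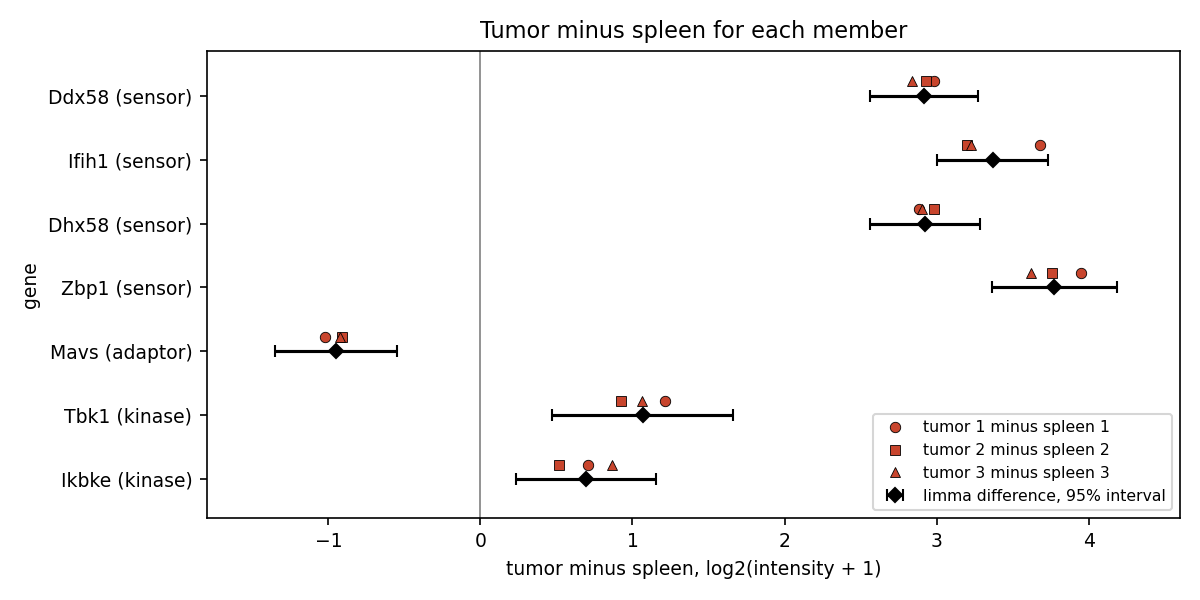
Tumor minus spleen for each of the 7 genes on the log2(intensity + 1) scale. Black diamonds are the limma differences with 95% intervals, and red symbols are the differences between tumor and spleen arrays of equal number. The 4 sensors lie between 2.92 and 3.77, the kinases at 1.07 and 0.70 and Mavs at -0.95.

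Set against all genes tested, whose median difference was -0.05, the sensors stood at ranks 49, 73, 102 and 104 from the largest rise. Tbk1 was at rank 660 and Ikbke at rank 1171, while Mavs was at rank 18109 of 18458. The genes most like each of the 7 were those with the smallest root mean square difference of centred log2 profiles over the 6 arrays. They were Gbp10 (0.0745) and Mov10 (0.0921) for Ddx58, and Nlrc5 (0.0816) and Gbp10 (0.0869) for Dhx58. For Ifih1 they were Gbp9 (0.0793) and Ch25h (0.0916), and for Zbp1 they were Ccl4 (0.141) and Rnf213 (0.171). Atg7 (0.0347) and Mapre3 (0.0404) were the nearest to Mavs. Cnp (0.0403) and G3bp2 (0.0494) were the nearest to Tbk1, and Mapkbp1 (0.0291) and Epb41l5 (0.0447) to Ikbke. These are descriptions over 6 arrays that share the same group difference.

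**Figure D3:**
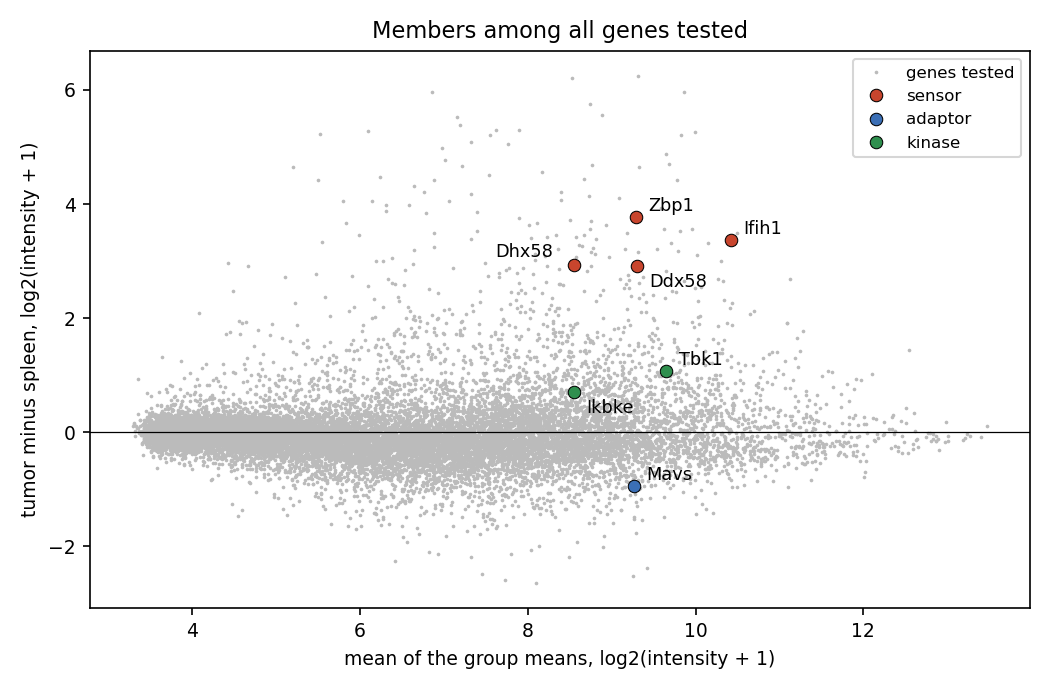
Tumor minus spleen against the mean of the group means, both in log2(intensity + 1), for the 18458 genes tested (grey) and the 7 named genes by role. The sensors lie high in the upper part, with Zbp1 at 3.77, and Mavs lies in the lower part at -0.95.

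Cofactors of the RNA sensors rose in 4 of 11 cases and fell in 0, with a median difference of 0.18, where 5.73% of all genes tested rose and 4.85% fell. At an unadjusted limma p under 0.05, 1 of them fell. With the array number as a block 5 were called higher and 1 lower, where 11.7% and 17.3% of all genes tested were. In both cases the gene that fell was Prkra, named after its value was seen, at -0.46 (limma adjusted p = 0.104 in the main fit). Its limma adjusted p was 0.00736 with the block and 0.0236 on arrays 1 and 2 alone. Ddx60, a helicase tied to RIG-I signalling, rose by 4.56 ± 0.21 (limma adjusted p = 4.97e-06), a larger value than that of any of the 7 genes. Of the ubiquitin ligases that activate RIG-I, Rnf135, also called Riplet, rose by 1.74 ± 0.18 and Trim25 by 1.18 ± 0.20 (adjusted p = 5.16e-04 and 0.00679), while a further ligase, Mex3c, named after its value was seen, stood at 0.48 and was not called (adjusted p = 0.071), though it was with the array number as a block and on arrays 1 and 2 alone (0.00602 and 0.0215). The remaining called gene, Zc3hav1, an antiviral RNA-binding protein, rose by 1.09 ± 0.19 and was named after its value was seen. These 4 calls held with each array left out. The RNA helicases Dhx9 (-0.09), Dhx15 (0.18), Dhx36 (0.12) and Ddx3x (-0.30), also named after their values were seen, were not called.

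Among 15 genes known to restrain the sensors or MAVS, 2 rose and 1 fell, with a median difference of -0.07, where 5.73% of all genes tested rose and 4.85% fell. With the array number as a block 4 were called higher and 2 lower, where 11.7% and 17.3% of genes tested were. Marchf5, a ubiquitin ligase of the mitochondrial outer membrane known to remove MAVS aggregates, rose by 1.92 ± 0.16, from 9.42 ± 0.19 to 11.34 ± 0.13 (SD, n = 3; limma adjusted p = 1.44e-04). The ubiquitin-editing enzyme A20, gene Tnfaip3, rose by 1.40 ± 0.17 (adjusted p = 0.0012). Nlrx1, a mitochondrial protein that binds MAVS, fell by 0.71 ± 0.16 (adjusted p = 0.0249). The Nlrx1 call was lost without any single array other than spleen 3 (adjusted p up to 0.122). It was also lost with quantile normalization and with cyclic loess, where 0 genes of the list were called lower. With median centring 1 was.

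Of 17 genes of cytosolic DNA sensing 1 rose and 4 fell, with a median difference of -0.21, where 5.73% of all genes tested rose and 4.85% fell. The enzyme cGAS, gene Cgas, which makes the messenger that activates STING, rose by 2.62 ± 0.32, from 5.08 ± 0.41 to 7.69 ± 0.59 (SD, n = 3; limma adjusted p = 0.00119). Sting1 itself stood at -0.01 ± 0.18 (95% interval -0.43 to 0.40, adjusted p = 0.989) and its sign turned with the scaling, over a range of -0.10 to 0.07. The RNA polymerase III subunit genes Polr3g and Polr3e fell by 1.02 ± 0.27 and 0.92 ± 0.16 (adjusted p = 0.0498 and 0.00706). Polymerase III is known to turn DNA in the cytosol into RNA that RIG-I can bind. The other 5 of its 7 subunits in the list, named after their values were seen, were not called: Polr3c stood at 0.53, Polr3b at 0.10, Polr3f at 0.08, Polr3a at 0.00 (its sign turned with the scaling) and Polr3d at -0.59. With the array number as a block Polr3c was called higher and Polr3d lower (adjusted p = 0.0043 and 0.00603). Xrcc5, the Ku80 subunit of the DNA repair complex, fell by 0.95 ± 0.23 (adjusted p = 0.0321), as did Rad50, named after its value was seen, by 0.59 ± 0.15 (adjusted p = 0.0452). The count of called genes was 2 or 3 without spleen 1, spleen 2, spleen 3, tumor 1 or tumor 2. Polr3e kept its call with each array left out. Polr3g and Rad50 lost theirs without any single array other than tumor 3 (adjusted p up to 0.191 and 0.188), and Xrcc5 without spleen 2, tumor 1 or tumor 2 (up to 0.126). With the block 3 genes were called higher and 8 lower, where 11.7% and 17.3% of all genes tested were.

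Enzymes that remove or alter nucleic acids the sensors could bind rose in 3 of 6 cases and fell in 0. Their median difference was 0.62, and 5.73% of all genes tested rose and 4.85% fell. At an unadjusted limma p under 0.05, 0 of them fell. With the array number as a block 3 were called higher and 0 lower, where 11.7% and 17.3% of all genes tested were. Another 4 genes of that list have no probe set with a single symbol. Adar, which edits double-stranded RNA so that MDA5 ignores it, rose by 1.75 ± 0.18 (limma adjusted p = 5.52e-04). The nuclease gene Dnase1l3 rose by 1.74 ± 0.17 and the nucleotide hydrolase gene Samhd1 by 1.06 ± 0.16 (adjusted p = 3.26e-04 and 0.00383). The RNase H2 subunits Rnaseh2a and Rnaseh2b, named after their values were seen, stood at -0.28 and -0.18 and were not called.

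Between the adaptors and IRF3, 6 of 13 signalling genes rose and 0 fell, with a median difference of 0.68, where 5.73% of all genes tested rose and 4.85% fell. At an unadjusted limma p under 0.05, 1 of them fell. With the array number as a block 8 were called higher and 1 lower, where 11.7% and 17.3% of all genes tested were. In both cases the gene that fell was Tbkbp1, named after its value was seen, at -0.47 (limma adjusted p = 0.184 in the main fit). Its limma adjusted p was 0.0144 with the block and 0.0186 on arrays 1 and 2 alone. The other 4 genes of the list have no probe set with a single symbol. Irf7, a transcription factor that the kinases phosphorylate, rose by 4.42 ± 0.16 (limma adjusted p = 2.21e-06). Its relative Irf3, named after its value was seen, stood at -0.18 ± 0.17 (95% interval -0.56 to 0.19, adjusted p = 0.671). Azi2, a scaffold of TBK1, rose by 1.60 ± 0.31, and Tomm70a, the mitochondrial receptor that links MAVS to TBK1, by 1.45 ± 0.21 (adjusted p = 0.0137 and 0.00297). The others called, named after their values were seen, were the scaffold Tank (1.14), the kinase Ikbkb (0.75) and the ubiquitin ligase Traf2 (0.68). Without spleen 1 or spleen 2 only 2 genes of the list were called, and without tumor 1 only 3. Azi2 (adjusted p up to 0.0569), Tank (up to 0.0904) and Ikbkb (up to 0.0756) lost their call when any 1 of these arrays was left out, and Traf2 without any single array other than tumor 1 (up to 0.157). On arrays 1 and 2 alone Tank (adjusted p = 0.0695) and Traf2 (0.125) were not called. Irf7 and Tomm70a kept theirs with each array left out.

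Of 6 genes of the cell death branch that ZBP1 can engage, 4 rose and 0 fell. Their median difference was 1.15, and 5.73% of all genes tested rose and 4.85% fell. At an unadjusted limma p under 0.05, 0 of them fell. With the array number as a block 4 were called higher and 0 lower, where 11.7% and 17.3% of all genes tested were. Mlkl, which perforates the plasma membrane in necroptosis, rose by 2.52 ± 0.17, from 7.89 ± 0.26 to 10.41 ± 0.09 (SD, n = 3; limma adjusted p = 4.18e-05). The inflammasome gene Nlrp3 rose by 1.69 ± 0.16 and the protease gene Casp1 by 1.39 ± 0.13 (adjusted p = 3.34e-04 and 3.27e-04). Ripk3, the kinase that ZBP1 binds, named after its value was seen, stood at 0.06 ± 0.19 (95% interval -0.38 to 0.50, adjusted p = 0.953). Casp8, named likewise, rose by 0.91 ± 0.23 (adjusted p = 0.0413), a call lost without any single array other than spleen 3 (up to 0.151).

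**Figure D4:**
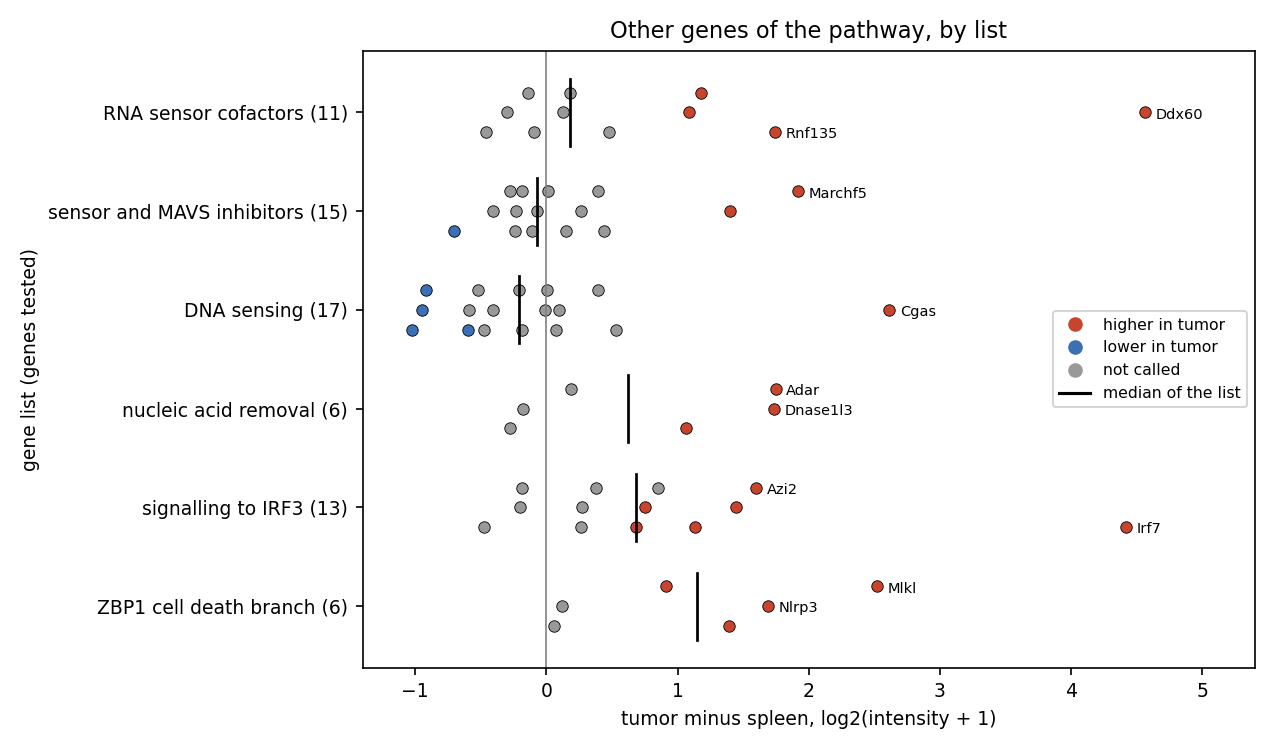
Tumor minus spleen, in log2(intensity + 1), for the other genes of the pathway in 6 lists, with the number tested in brackets. Red points were called higher in tumor, blue points lower and grey points were not called; the line is the median of the list, and called genes beyond 1.5 in size are named. The medians run from -0.21 for DNA sensing to 1.15 for the cell death branch.

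The arrays numbered 3 stood apart in both groups, with medians of log2 level of 4.73 and 4.76 against 4.50 to 4.51 on the other 4 arrays. On the arrays numbered 1 and 2 alone all 7 genes were called, where 15.9% of genes tested were. In the pair numbered 3 the changes were 2.84 for Ddx58, 3.22 for Ifih1, 2.90 for Dhx58 and 3.62 for Zbp1. Each lay within the sensor's 95% interval, to which that pair contributes. All 7 monocyte markers were above the 25th percentile of every array. So were all those measured for neutrophils (8), T cells (6) and stroma and epithelium (9). This count therefore does not tell cell types apart. The summed intensity of the monocyte markers was 15300 to 15800 in spleen and 13800 to 14900 in tumor. Of the monocyte markers Ly6c2 (6.81 in spleen, 8.29 in tumor) and Cd14 (8.49, 10.50) were higher in tumor. Itgam (10.04, 9.19), Ccr2 (6.86, 5.93) and Csf1r (11.39, 10.82) were lower. Such levels are not comparable between genes. Itgax, which encodes the CD11c that the sort selected against, was at 11.16 in spleen and 10.31 in tumor. Of 6 dendritic cell markers Zbtb46 (6.82 in spleen, 7.71 in tumor) and Ccr7 (11.56, 12.11) were higher and Itgax lower. The sums of this list were 6040 to 6390 in spleen and 6360 to 6620 in tumor. Sums were lower in tumor for markers of neutrophils (2710 to 3290 in spleen, 1970 to 2190 in tumor), T cells (273 to 316, and 166 to 213), B cells (431 to 624, and 289 to 413) and stroma and epithelium (644 to 691, and 561 to 633). The called markers in these lists were 1 each for neutrophils (Mmp8), T cells (Cd3g) and B cells (Cd22), all lower, and 0 for stroma and epithelium. Sums of intensity weigh the brightest marker most. This was the called one for neutrophils (Mmp8, 10.93 in spleen and 10.25 in tumor), T cells (Cd3g, 6.70 and 5.34) and B cells (Cd22, 8.66 and 7.96). Most other tested markers of these 3 lists were also lower in tumor, without being called. They ran from -0.37 (S100a8) to 0.22 (Camp) for neutrophils and from -0.80 (Cd28) to 0.06 (Cd3e) for T cells. For B cells they ran from -0.51 (Cd79b) to -0.06 (Pax5). Some hardly moved, such as Ltf (-0.01) and Cd3d (0.00), so the sums do not give the size of the change across a list. For plasmacytoid dendritic cells the sums were 139 to 212 in spleen and 139 to 218 in tumor, for NK cells 90.4 to 121 and 94.1 to 134, and for melanocytes 104 to 136 and 107 to 127. The part of other cell types in the results was not tested.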

How the data were processed

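The authors deposited 1 table of intensity values, on a linear scale, with 41345 probe sets and 6 arrays. RMA (background correction, normalization and summary of probes) is named in the submitters' processing notes, without version or setting. RNA had an integrity number above 8.5, per the labels' protocols. Probe sets were named from the platform annotation, and 23521 with exactly 1 gene symbol were used. Where a gene had several, the one with the highest mean over the 6 arrays was kept. Genes above the 25th percentile of the array on at least 3 arrays were tested on log2(intensity + 1) in R 4.3.3 with limma 3.58.1 (functions lmFit and eBayes; a two-sided test with tissue as the single term), with Benjamini-Hochberg adjustment over all genes tested. The fit was tested on simulated data. An exact test of 3 against 3 arrays cannot go below p = 0.1, and the number of arrays limits the precision.

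The 7 genes and the 6 pathway lists were chosen with earlier results of these data known. From each list the text names up to 3 called genes per direction with the largest change, and others where it says so. The nearest genes leave out the 7, predicted genes and small RNAs.

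Whether equal array numbers pair was checked by correlating each array's deviations from its group mean across genes. Arrays of number 1 gave 0.361, of number 2 gave 0.44 and of number 3 gave 0.709, and the numbers were taken as pairs for the block. The crossed correlations were 0.463 (spleen 1, tumor 2) and 0.347 (spleen 2, tumor 1). Numbers 1 and 2 can therefore not be told apart as pairs. Arrays numbered 3 crossed with the other numbers gave -0.589 to -0.436. The correlations thus show only that the arrays numbered 3 go together, and the pairing of numbers 1 and 2 is an assumption of the block. No source used here states what equal numbers stand for. Alternatives were quantile normalization, median centring, cyclic loess, no filter, a filter at the 50th percentile, averaged probe sets, a pseudocount of 16, a trended robust prior, array weights, the block, arrays 1 and 2 or arrays 3 alone, and each array left out.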

Additional observations from a re-analysis of the deposited data

How the results depend on the processing

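The 4 sensors kept direction and call under all 17 tested alternatives, and no gene of the 7 reversed under any. Leaving out each array in turn gave -1.07 to -0.84 for Mavs, 0.84 to 1.29 for Tbk1 and 0.51 to 0.80 for Ikbke. Ikbke became called with quantile normalization (0.65), median centring (0.69), cyclic loess (0.78), the 50th percentile filter (0.70), array weights (0.57), the replicate block (0.70) and arrays 1 and 2 alone (0.61). The replicate block changed no other call of the 7 genes. All called genes numbered 1952, and 3506 with quantile normalization, 3289 with median centring, 3184 with cyclic loess, 7102 with array weights, 5346 with the block, 2936 on arrays 1 and 2, and 1011 to 1924 with an array left out. Called DNA sensing genes numbered 5, and 8 with median centring, 3 with the trended robust prior, 11 with array weights, 11 with the block and 2 to 6 with an array left out. Called genes between the adaptors and IRF3 numbered 6, and 11 with array weights and 2 to 6 with an array left out. Called inhibitors numbered 3, and 7 with array weights and 6 with the block. They numbered 2 with quantile normalization and 4 with cyclic loess, with 0 called lower in either. The cause of these shifts was not tested. Intensity has no count behind it, and log2(intensity + 1) understates changes of dim genes.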
